A study of Arabidopsis thaliana with 36 samples.

Results

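The roots compared here are those of tpst plants given 10 nM phytosulfokine (PSK) for 30 min and those of untreated tpst plants, 3 libraries each, 6 of the 36 libraries of the series. Both groups carry the same T-DNA insertion in TPST, in the Col-0 background, and were 11 days old after growth in liquid MS medium with sucrose. TPST encodes the tyrosylprotein sulfotransferase of Arabidopsis, which also sulfates the PSY, RGF and CIF peptides, so the mutant lacks more than active PSK. For the PSK group the medium was exchanged for fresh medium that held the peptide, whereas the untreated plants had no exchange, so PSK and the medium change cannot be told apart. The seedlings of a replicate were pooled and divided into root and shoot. Roots of untreated Col-0 (WT) plants and of tpst plants given PSK for 2 h, 3 libraries each, are used below for levels.

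PSK is a short sulfated peptide hormone that plant cells secrete and perceive at the cell surface through the leucine-rich repeat receptor kinases PSKR1 and PSKR2. It is known for promoting the growth of roots and for lowering responses to microbial patterns. Pattern-triggered immunity is the response that follows when receptor kinases at the plasma membrane sense molecules such as bacterial flagellin. It includes kinase cascades, a burst of reactive oxygen and the induction of WRKY transcription factors, which bind the W-box, a short motif with the core TTGAC. Bulk RNA cannot distinguish fewer cells of a type from less RNA per cell.

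After 30 min of PSK, 80 genes were downregulated and 17 upregulated in roots, of 21358 tested, by edgeR's quasi-likelihood test with a 2-fold minimum and an adjusted p below 0.05. Those calls were 0.375% and 0.0796% of the genes tested. The downregulated genes included 7 WRKY genes, the MLO genes MLO6 and MLO12, the danger peptide precursors PROPEP2 and PROPEP3, the E3 ligases PUB22, PUB23 and PUB27 and the receptor kinase IOS1. The upregulated genes included 5 chaperones, led by HSP101, and 3 enzymes of sugar breakdown and fermentation, SUS1, PFK3 and ADH1. The median log2 fold change was -1.41 among the 80 genes that fell (range -3.98 to -1.02) and 1.24 among the 17 that rose (range 1.01 to 2.503), against -0.007 over all genes tested. In CPM, the reads of a gene scaled by library size, the groups did not overlap for any of these 97 genes. Over all genes tested, the 3 PSK libraries lay above the 3 untreated ones for 11.4% and below them for 12.3%. All 97 are protein-coding, and 51 of the 80 and 12 of the 17 averaged at least 5 CPM over the 6 libraries.

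These counts leaned on single libraries. Without PSK replicate 2, 21 genes fell and 0 rose (with all libraries, 8.69% of genes were lower and 5.99% higher at an unadjusted p under 0.05). Without PSK replicate 3 the counts were 36 and 24, without untreated replicate 1 they were 33 and 3, and without untreated replicate 2 they were 46 and 3. The third untreated library stood apart. The median level of 30 photosynthesis genes was 64.4 CPM there. It was 13.8 to 17.7 CPM with PSK, and 12.1 and 12.9 CPM in untreated replicates 2 and 1. TGG1, the myrosinase of guard cells and myrosin cells in leaves, had 54.2 CPM in that library, against 6.403, 0 and 0.947 CPM with PSK and 0.318 and 0.0396 CPM in the other untreated roots. The root markers were alike, with a median of 29.4 to 37.0 CPM with PSK and 32.0 to 34.6 CPM untreated over 15 genes, each of them at 1 CPM or more in the PSK libraries. Over the 6 libraries, 29 of the 30 photosynthesis genes had values below 0 with PSK, with a median log2 fold change of -0.79, and none was called (3 were lower at an unadjusted p under 0.05). Without that library 67 genes fell and 11 rose, and 57 of the 80 and 5 of the 17 calls remained. With the level of the photosynthesis genes as a covariate, 72 fell and 15 rose, and 69 and 13 calls remained. Of the 80 genes, 21 kept their call whichever library was left out (AT1G13480, AT2G44370, AT4G20000, AT1G10340, AtRLP22, AT5G44910, IOS1, AT1G30700, CBP60G, WRKY72, PP2A8, PHT1;4, WAKL6, WAKL4, AT1G53625, ATL21A, AT1G49000, ATGPAT3, AT2G17050, CLE14 and MLO6), and none of the 17 did.

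TPST transcript itself was at 14.4, 15.6 and 14.9 CPM in the PSK roots and 14.9, 12.8 and 15.2 CPM in the untreated tpst roots, and at 27.6, 29.1 and 28.9 CPM in WT roots. Transcript upstream of the insertion can remain in the mutant. TPST did not differ between the PSK and untreated roots beyond the spread of the replicates (log2 fold change 0.06, SE 0.11, adjusted p = 0.833).

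Promoters were searched for the W-box, the site of WRKY factors, and 6 that hold it are shown next. Sequence was read from the RefSeq assembly TAIR10.1, where 32520 of the 32548 genes found in both annotations had the same start and end as in the count table (build TAIR10). In the window from 250 bases before to 50 after the annotated gene start, TTGAC followed by any base but G, on either strand, was found for 69 of the 80 genes that fell (86.2%) and 6 of the 17 that rose (35.3%), against 9602 of 20659 tested protein-coding genes with a window (46.5%). At least 2 W-boxes were found for 45 of the 80 genes (56.2%) and 3 of the 17, against 14.9% of all, and at least 3 for 20 of the 80, against 3.7% of all. The median GC content of the windows was 30.7% in both groups and 32.0% over all. The other motifs searched were nearer their shares over all windows among the genes that fell. CGCGTT, the rapid stress response element, was found for 5.0% of them against 3.8% of all, the GCC-box GCCGCC for 1.2% against 2.6%, the G-box CACGTG for 5.0% against 8.6% and GAANNTTC, a core of the heat shock element, for 13.8% against 11.4%. Among the 17 genes that rose, 3 held the G-box and 3 held GAANNTTC, and none of the 17 held GAANNTTC within the 250 bases before the start alone. These shares are a description and were not tested, and a match does not show that a factor binds there.

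To be shown, a promoter had to hold a W-box in the 250 bases before the start and overlap no other gene there. Genes averaging under 5 CPM over the 6 libraries were left out. Of the rest that fell, the 6 promoters are those of the 3 named genes and the 3 study-named defense genes with the smallest p. Each is given from 5′ to 3′ toward the gene start, with the W-boxes of either strand in capitals.
AT4G20000 (chr4:10838060-10838309, plus strand): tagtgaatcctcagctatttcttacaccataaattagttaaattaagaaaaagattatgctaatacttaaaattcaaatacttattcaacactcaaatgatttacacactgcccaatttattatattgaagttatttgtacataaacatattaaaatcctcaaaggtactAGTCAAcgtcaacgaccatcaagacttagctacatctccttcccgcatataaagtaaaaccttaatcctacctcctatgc
WRKY17 (chr2:10439470-10439719, minus strand): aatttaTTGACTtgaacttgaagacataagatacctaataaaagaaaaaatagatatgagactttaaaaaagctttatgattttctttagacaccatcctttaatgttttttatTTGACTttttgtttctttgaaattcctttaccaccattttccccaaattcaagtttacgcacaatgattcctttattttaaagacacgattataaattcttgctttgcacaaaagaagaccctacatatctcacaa
AT1G10340 (chr1:3392634-3392883, minus strand): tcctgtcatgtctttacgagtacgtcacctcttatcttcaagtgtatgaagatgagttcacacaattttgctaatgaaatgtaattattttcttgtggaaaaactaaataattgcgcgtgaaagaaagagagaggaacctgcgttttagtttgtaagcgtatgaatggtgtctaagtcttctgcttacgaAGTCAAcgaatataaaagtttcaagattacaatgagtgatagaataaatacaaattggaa
IOS1 (chr1:19213822-19214071, plus strand): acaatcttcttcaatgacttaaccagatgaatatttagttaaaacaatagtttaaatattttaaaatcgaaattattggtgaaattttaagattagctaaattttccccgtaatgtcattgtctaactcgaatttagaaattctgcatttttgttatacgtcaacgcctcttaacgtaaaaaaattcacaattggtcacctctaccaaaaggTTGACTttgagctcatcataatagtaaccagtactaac
WRKY72 (chr5:4904040-4904289, plus strand): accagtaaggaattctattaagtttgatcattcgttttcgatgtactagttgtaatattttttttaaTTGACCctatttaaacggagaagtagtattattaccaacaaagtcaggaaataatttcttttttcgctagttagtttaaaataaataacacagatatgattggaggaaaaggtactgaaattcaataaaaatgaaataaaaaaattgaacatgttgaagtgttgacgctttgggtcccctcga
MLO12 (chr2:16359944-16360193, minus strand): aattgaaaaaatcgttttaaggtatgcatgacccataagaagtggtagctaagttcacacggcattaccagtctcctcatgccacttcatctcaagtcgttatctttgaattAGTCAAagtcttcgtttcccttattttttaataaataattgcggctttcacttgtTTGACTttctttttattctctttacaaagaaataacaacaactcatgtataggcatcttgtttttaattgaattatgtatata
WRKY17 and MLO12 each have 2 W-boxes in this stretch, the nearest beginning 136 and 83 bases before the gene start. In IOS1 the only one begins 38 bases before the start, and in AT1G10340, AT4G20000 and WRKY72 the only ones begin 60, 80 and 183 bases before it.

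WRKY genes were prominent among the regulators that fell. Of 62 WRKY genes tested, 7 were downregulated and none upregulated (11.3% called, against 0.375% of all genes downregulated), with a median log2 fold change of -0.20 over the family and 41 of 62 members below 0. WRKY72, which contributes to basal immunity, had 9.71, 5.26 and 8.62 CPM with PSK, against 50.8, 38.6 and 39.7 CPM untreated (log2 fold change -2.45, SE 0.32, adjusted p = 0.00221). The highest PSK library was far below the lowest untreated one. WRKY17, known with WRKY11 as a negative regulator of basal resistance, had 58.0, 39.4 and 57.5 CPM with PSK and 106, 109.9 and 131 CPM untreated (log2 fold change -1.16, SE 0.13, adjusted p = 0.000525). It kept its call except without PSK replicate 2. WRKY11 had 46.8, 27.5 and 31.00 CPM with PSK and 81.9, 72.03 and 71.99 CPM untreated (log2 fold change -1.10, SE 0.20, adjusted p = 0.0134). WRKY11 lost its call without PSK replicate 2, PSK replicate 3 or untreated replicate 1, and with edgeR on the compared libraries alone. The first PSK library was the highest of its group in WRKY11.

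WRKY33, an activator of camalexin synthesis, had 92.9, 65.0 and 50.4 CPM with PSK and 194, 152 and 142 CPM untreated (log2 fold change -1.23, SE 0.26, adjusted p = 0.0364). WRKY53, a regulator of senescence and defense, had 11.8, 8.67 and 8.23 CPM with PSK and 33.6, 24.98 and 19.7 CPM untreated (log2 fold change -1.45, SE 0.29, adjusted p = 0.0246). WRKY22, which acts downstream of flagellin sensing, had 5.92, 2.76 and 3.02 CPM with PSK and 15.7, 10.2 and 11.7 CPM untreated (log2 fold change -1.69, SE 0.39, adjusted p = 0.0493). WRKY28, a regulator of salicylic acid synthesis, had 2.02, 2.03 and 1.63 CPM with PSK and 5.08, 4.32 and 5.33 CPM untreated (log2 fold change -1.38, SE 0.26). In each of the 4 the highest PSK library stayed below the lowest untreated one. None of the 4 was called without PSK replicate 2, PSK replicate 3 or untreated replicate 1. WRKY22, WRKY28 and WRKY33 were not called without untreated replicate 3 either. WRKY33 and WRKY53 overlap other annotated genes, and the library kit named in the labels does not mark strand, so reads of overlapping genes cannot be separated for these 2. The same holds for 9 other genes that fell, MLO6, MLO12, PUB23, AtRLP22, MKS1, PCR8, GRI, AT1G36622 and AT2G42060. It also holds for HSP101, ADH1 and PKS1 among those that rose.

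Of 25 tested genes for VQ proteins, a family with partners of WRKY factors, 2 were downregulated (8.0%, against 0.375% of all genes). In that family 17 had values below 0 (median -0.29). AT4G20000, which RefSeq describes as a VQ motif protein, had 3.34, 2.92 and 5.05 CPM with PSK, against 18.7, 16.9 and 23.1 CPM untreated (log2 fold change -2.36, SE 0.26, adjusted p = 0.000525). MKS1, a VQ protein and MAP kinase substrate that binds WRKY33, had 9.05, 5.91 and 4.18 CPM with PSK, against 18.03, 15.3 and 13.8 CPM untreated (log2 fold change -1.31, SE 0.24, adjusted p = 0.0141). The grouping of VQ genes, like those by RefSeq product below, was chosen after the values were seen. ZAT11, a zinc finger regulator, had 1.67, 1.04 and 0.973 CPM with PSK and 10.2, 6.14 and 6.28 CPM untreated (log2 fold change -2.62, SE 0.46, adjusted p = 0.0113). CBP60G, a calmodulin-binding activator of salicylic acid synthesis, had 9.50, 10.7 and 8.26 CPM with PSK and 32.7, 28.98 and 25.6 CPM untreated (log2 fold change -1.62, SE 0.21, adjusted p = 0.000854).

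**Figure D1:**
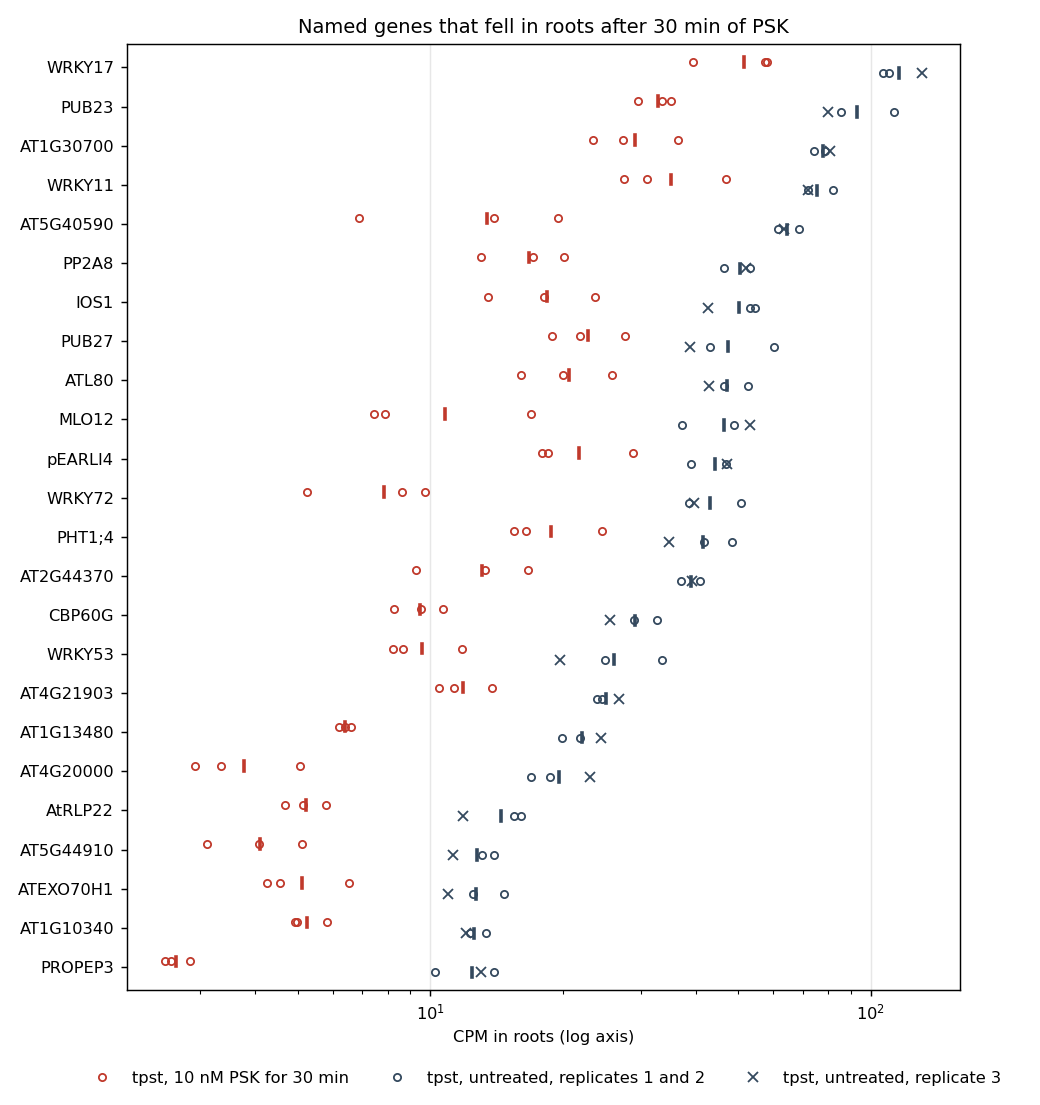
CPM (log axis) of 24 named genes that fell in roots after 30 min of PSK, 1 row per gene, ordered by level in untreated roots. Red circles are the 3 PSK libraries, dark circles untreated replicates 1 and 2, crosses untreated replicate 3, and bars group means. In every row the PSK libraries lie left of the untreated ones, with no overlap. Such a separation was part of the rule by which many of these genes were named, so it is not a separate result.

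The pattern-triggered immunity list held 47 tested genes, of which 8 were downregulated (against 0.375% of all genes) and none upregulated. On that list 44 of 47 had values below 0, with a median log2 fold change of -0.47, against -0.007 over all genes tested. Without untreated replicate 3, 3 of the 47 were called, and with the photosynthesis covariate 4 were. IOS1, a receptor kinase that promotes pattern-triggered immunity, had 24, 18.1 and 13.5 CPM with PSK, against 53.2, 54.5 and 42.7 CPM untreated (log2 fold change -1.45, SE 0.17, adjusted p = 0.000755). PROPEP3, precursor of a peptide released from damaged cells, had 2.85, 2.49 and 2.58 CPM with PSK and 13.98, 10.2 and 13.04 CPM untreated (log2 fold change -2.23, SE 0.47, adjusted p = 0.0333). PROPEP2 had 2.19, 1.65 and 1.499 CPM with PSK and 7.94, 8.72 and 6.36 CPM untreated, close to the threshold (adjusted p = 0.0499). For both precursors the groups did not overlap, but both lost their call whichever of the 6 libraries was left out and without a filter on low counts. PROPEP2 lost it also with RLE scaling, with the photosynthesis covariate and with a replicate block.

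PUB22 and PUB23, E3 ubiquitin ligases that dampen pattern-triggered immunity, fell as well. PUB23 had 33.5, 35.2 and 29.7 CPM with PSK, against 113, 85.7 and 79.9 CPM untreated (log2 fold change -1.50, SE 0.26, adjusted p = 0.0113). PUB22 had 18.1, 13.5 and 14.9 CPM with PSK, against 56.7, 36.04 and 30.9 CPM untreated (log2 fold change -1.41, SE 0.31, adjusted p = 0.0466). PUB27, of the same U-box family, had 27.6, 21.9 and 18.9 CPM with PSK, against 60.2, 43.0 and 38.8 CPM untreated (log2 fold change -1.06, SE 0.22, adjusted p = 0.0337). PUB22 lost its call whichever of the 6 libraries was left out and with the photosynthesis covariate. These 3 were among 49 PUB genes tested (6.12% called, against 0.375% of all genes downregulated), with a family median of -0.20. Among the ATL ligases, 2 of 60 were downregulated (3.33%, against 0.375% of all genes), ATL80 (-1.19, SE 0.25) and ATL67 (-1.05, SE 0.19). The family median was -0.01, and ATL80 was not called without untreated replicate 3. ATL21A, described as a putative RING-H2 protein but not held by that list, was at 0.418, 0.575 and 0.526 CPM with PSK and 2.58, 1.86 and 2.21 CPM untreated (log2 fold change -2.12, SE 0.33, adjusted p = 0.00512). By RefSeq product, 3 of 221 RING/U-box superfamily genes were downregulated (1.36%), with a median of 0.06.

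Of the 8 defense genes the study singled out, 6 were downregulated in these roots (75.0%, against 0.375% of all genes). The study chose them on these samples, so that count is not independent evidence. FOX1, a berberine bridge enzyme-like oxidase of an indole-derived defense pathway, had 1.36, 0.422 and 0.394 CPM with PSK, against 5.80, 2.97 and 2.87 CPM untreated (log2 fold change -2.43, SE 0.45, adjusted p = 0.0124). MLO12, whose family is known for susceptibility to powdery mildew, had 16.9, 7.90 and 7.47 CPM with PSK, against 37.2, 48.9 and 53.1 CPM untreated (log2 fold change -2.11, SE 0.31, adjusted p = 0.00527). PCR8, of the plant cadmium resistance family, had 20.01, 13.3 and 10.6 CPM with PSK and 38.5, 30.8 and 37.4 CPM untreated (log2 fold change -1.28, SE 0.28, adjusted p = 0.0374). The other called members were IOS1, WRKY22 and WRKY72. FOX5 had 1.46, 0.767 and 0.447 CPM with PSK and 1.83, 1.82 and 1.91 CPM untreated, with a log2 fold change of -1.07 (SE 0.55) that missed the test (adjusted p = 0.383). PME41, a pectin methylesterase, had 38.7, 32.6 and 29.2 CPM with PSK and 60.9, 80.5 and 74.8 CPM untreated, and also missed it (log2 fold change -1.11, adjusted p = 0.0874). For PME41 the groups did not overlap, and for FOX5 they did not either. Without untreated replicate 3, 4 of the 8 were called, PCR8 and WRKY22 being lost.

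At the cell surface and in the wall, 3 of 20 wall-associated kinase genes were downregulated and none upregulated (median -0.43). WAKL6 had 1.74, 1.57 and 1.18 CPM with PSK, against 5.28, 6.82 and 5.84 CPM untreated (log2 fold change -2.00, SE 0.23, adjusted p = 0.000525). WAKL4 and WAKL5, which lie side by side on chromosome 1, had 0.940, 0.384 and 0.421 CPM and 2.61, 1.496 and 1.29 CPM with PSK, against 2.22, 3.13 and 2.76 CPM and 4.13, 6.66 and 6.32 CPM untreated. AtRLP22, a receptor-like protein, had 5.15, 4.68 and 5.81 CPM with PSK, against 16.1, 15.5 and 11.9 CPM untreated (log2 fold change -1.47, SE 0.17, adjusted p = 0.000525). It was the only one called of 35 in its family (2.86%). The peroxidase PER4 (-2.18, SE 0.41), the pectinesterase PME7 (-1.05, SE 0.19), the exocyst subunit ATEXO70H1 (-1.31, SE 0.24), the metalloproteinase 3MMP (-1.26, SE 0.29) and the glutamate receptor GLR1.3 (-1.06, SE 0.24) were downregulated too, PER4 and 3MMP not without untreated replicate 3. MLO6 had 7.83, 4.79 and 6.68 CPM with PSK and 13.7, 13.8 and 18.3 CPM untreated (log2 fold change -1.24, SE 0.19, adjusted p = 0.00482). Together with MLO12 it made 2 of the 13 MLO genes tested (15.38% called, against 0.375% of all genes downregulated), whose median was -0.12.

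Several genes that fell belong to families of less known function. AT1G13480, which RefSeq describes as a DUF1262 protein, had the smallest p of all genes tested, with 6.20, 6.60 and 6.39 CPM with PSK, against 21.9, 19.9 and 24.4 CPM untreated (log2 fold change -1.79, SE 0.14, adjusted p = 1.02e-05). It lies in a run of DUF1262 genes on chromosome 1, and AT1G13520, AT1G13530 and AT1G13540 from that run fell as well, with log2 fold changes of -1.03, -1.14 and -1.19. Thus 4 of 8 DUF1262 genes tested were called (median -1.09), AT1G13520 and AT1G13540 not without untreated replicate 3. Proteins with a cysteine- and histidine-rich C1 domain gave 6 of 119 (5.04%, against the same 0.375%), although the median of that family was -0.01. AT5G40590 had 19.4, 13.9 and 6.89 CPM with PSK, against 61.4, 68.6 and 63.4 CPM untreated (log2 fold change -2.27, SE 0.40, adjusted p = 0.014). AT2G44370 had 16.7, 13.3 and 9.26 CPM with PSK, against 36.98, 40.99 and 39.3 CPM untreated (log2 fold change -1.58, SE 0.17, adjusted p = 0.000525), and its neighbor AT2G44380 had 12.3, 9.09 and 9.89 CPM with PSK, against 34.04, 29.02 and 29.03 CPM untreated. Genes with a TIR domain, the signaling domain of one class of intracellular immune receptors, gave 5 of 96 (5.21%, against 0.375% of all genes, median -0.22). Leucine-rich repeat kinase genes gave 2 of 106 (1.89%, median -0.14). AT5G44910 had 5.12, 3.11 and 4.08 CPM with PSK, against 13.9, 13.1 and 11.2 CPM untreated (log2 fold change -1.64, SE 0.19, adjusted p = 0.000585), and AT2G17050 had 3.48, 1.61 and 2.66 CPM with PSK, against 10.6, 7.77 and 6.43 CPM untreated (log2 fold change -1.67, SE 0.27, adjusted p = 0.00574). PP2A8, described as a phloem protein, had 20.1, 17.1 and 13.04 CPM with PSK, against 53.1, 46.5 and 52.0 CPM untreated (log2 fold change -1.60, SE 0.22, adjusted p = 0.0034). Genes of such clusters resemble each other, and how the counting treated reads that fit more than 1 of them is not given in the sources used here.

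Further genes that fell encode a transporter, enzymes and precursors of small peptides. PHT1;4, a phosphate importer of the root epidermis, had 24.5, 16.5 and 15.5 CPM with PSK, against 41.9, 48.4 and 34.8 CPM untreated (log2 fold change -1.15, SE 0.17, adjusted p = 0.00441). It was the only one called of 13 phosphate starvation genes tested (7.69%, against 0.375% of all genes downregulated). ATGPAT3, a glycerol-3-phosphate acyltransferase, had 9.43, 6.60 and 9.94 CPM with PSK, against 35.1, 26.8 and 25.8 CPM untreated (log2 fold change -1.75, SE 0.26, adjusted p = 0.00442). CLE14, which encodes a CLE signaling peptide, had 1.95, 1.496 and 1.34 CPM with PSK, against 5.203, 3.49 and 4.89 CPM untreated (log2 fold change -1.51, SE 0.19, adjusted p = 0.000854). The cytokinin synthesis gene IPT7 had 7.62, 3.95 and 5.34 CPM with PSK, against 15.2, 14.9 and 10.99 CPM untreated (log2 fold change -1.28, SE 0.28, adjusted p = 0.0376). GRI, whose product is the source of a peptide that acts in cell death, had 6.79, 4.11 and 5.26 CPM with PSK, against 15.7, 15.6 and 11.3 CPM untreated (log2 fold change -1.40, SE 0.26, adjusted p = 0.0141). The berberine bridge enzyme-like gene AT1G30700 had 36.6, 27.4 and 23.4 CPM with PSK, against 78.7, 74.5 and 80.9 CPM untreated (log2 fold change -1.42, SE 0.17, adjusted p = 0.000854).

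Chaperones were the largest group among the 17 genes that rose. HSP101, the disaggregase of the cytosol, had 43.3, 44.6 and 25.3 CPM with PSK, against 12.8, 11.6 and 11.9 CPM untreated (log2 fold change 1.64, SE 0.28, adjusted p = 0.0113). The third PSK library was the lowest of its group and still above the untreated ones. ROF2, a co-chaperone of the FKBP family, had 42.2, 53.6 and 44.0 CPM with PSK, against 19.9, 22.7 and 17.56 CPM untreated (log2 fold change 1.22, SE 0.21, adjusted p = 0.01). The mitochondrial small heat shock protein gene HSP23.5 had 17.3, 23.02 and 15.8 CPM with PSK, against 6.36, 6.66 and 7.35 CPM untreated (log2 fold change 1.46, SE 0.29, adjusted p = 0.0238). HSP17.4B, another small heat shock protein gene, had 6.30, 6.94 and 4.08 CPM with PSK, against 1.95, 2.22 and 2.46 CPM untreated (log2 fold change 1.38, SE 0.30, adjusted p = 0.0359). The DnaJ gene AT2G20560 had 23.8, 24.3 and 13.5 CPM with PSK, against 9.33, 8.88 and 9.11 CPM untreated (log2 fold change 1.17, SE 0.22, adjusted p = 0.0141). In HSP17.4B and AT2G20560, too, the third PSK library was the lowest of its group. Of 25 tested genes of the heat shock and protein folding list, 2 were upregulated (8.0%, against 0.0796% of all genes) and none downregulated. On that list 19 had values above 0, and the median was 0.59. Over the wider family of 64 heat shock proteins and factors, 3 were upregulated (4.69%) and the median was 0.06. HSP101 and ROF2 kept their calls without untreated replicate 3, and HSP23.5, HSP17.4B and AT2G20560 did not.

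Of the enzymes that rose, 3 act in sucrose breakdown, glycolysis and fermentation, and ADH1 and SUS1 are known to rise in plants short of oxygen. ADH1, the alcohol dehydrogenase of ethanol fermentation, had 2778, 2345 and 1943 CPM with PSK, against 1449, 932 and 786 CPM untreated (log2 fold change 1.16, SE 0.25, adjusted p = 0.0417). SUS1, a sucrose synthase, had 1096, 1021 and 749 CPM with PSK, against 516, 404 and 318 CPM untreated (log2 fold change 1.21, SE 0.24, adjusted p = 0.0294). PFK3, a phosphofructokinase, had 57.6, 74.2 and 39.9 CPM with PSK, against 25.02, 28.7 and 25.4 CPM untreated (log2 fold change 1.11, SE 0.23, adjusted p = 0.0331). In all 3 genes PSK replicate 3 was the lowest of its group and above every untreated library. None of the 3 kept its call without untreated replicate 3, nor PFK3 with the photosynthesis covariate. On the core hypoxia list, 2 of 15 genes were upregulated, ADH1 and SUS1 (13.3% called, against 0.0796% of all genes upregulated). All 15 had values above 0, with a median log2 fold change of 1.16. Without untreated replicate 3 none of the 15 was called by edgeR (median 0.99), whereas DESeq2 with all libraries called 6.

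The other genes that rose did not share a list. PKS1, a substrate of phytochrome, had 9.43, 14.8 and 14.1 CPM with PSK, against 5.16, 4.28 and 4.92 CPM untreated (log2 fold change 1.42, SE 0.24, adjusted p = 0.00889). PAR1, a regulator of shade responses, had 10.09, 9.02 and 5.89 CPM with PSK, against 3.26, 4.20 and 4.67 CPM untreated (log2 fold change 1.04, SE 0.22, adjusted p = 0.0294). LOL1, a zinc finger protein that acts in cell death, had 9.12, 7.83 and 7.36 CPM with PSK, against 2.82, 2.498 and 2.83 CPM untreated (log2 fold change 1.57, SE 0.30, adjusted p = 0.0147). AT1G78830, which RefSeq describes as a Curculin-like lectin, had 119.9, 146 and 93.0 CPM with PSK, against 46.6, 51.3 and 70.9 CPM untreated (log2 fold change 1.09, SE 0.20, adjusted p = 0.014). The glycosyltransferase gene UGT75B2 had 10.3, 10.09 and 11.4 CPM with PSK, against 4.49, 6.54 and 4.85 CPM untreated (log2 fold change 1.01, SE 0.21, adjusted p = 0.0277). The largest fold changes were those of AT4G30380 and AT4G32630. AT4G30380, a Barwin-related gene, had 4.46, 5.64 and 1.92 CPM with PSK, against 1.11, 0.317 and 0.661 CPM untreated (log2 fold change 2.503, SE 0.56), and AT4G32630, with an ArfGap domain, had 0.766, 2.38 and 1.24 CPM with PSK, against 0.357, 0.357 and 0.331 CPM untreated (2.04, SE 0.44). AT3G48510 (1.303, SE 0.26) and AT4G33800 (1.24, SE 0.27) completed the set. Without untreated replicate 3, LOL1, UGT75B2, AT4G30380, AT4G32630, AT3G48510 and AT4G33800 were not called, and with the photosynthesis covariate AT4G30380, AT4G32630 and UGT75B2 were not.

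**Figure D2:**
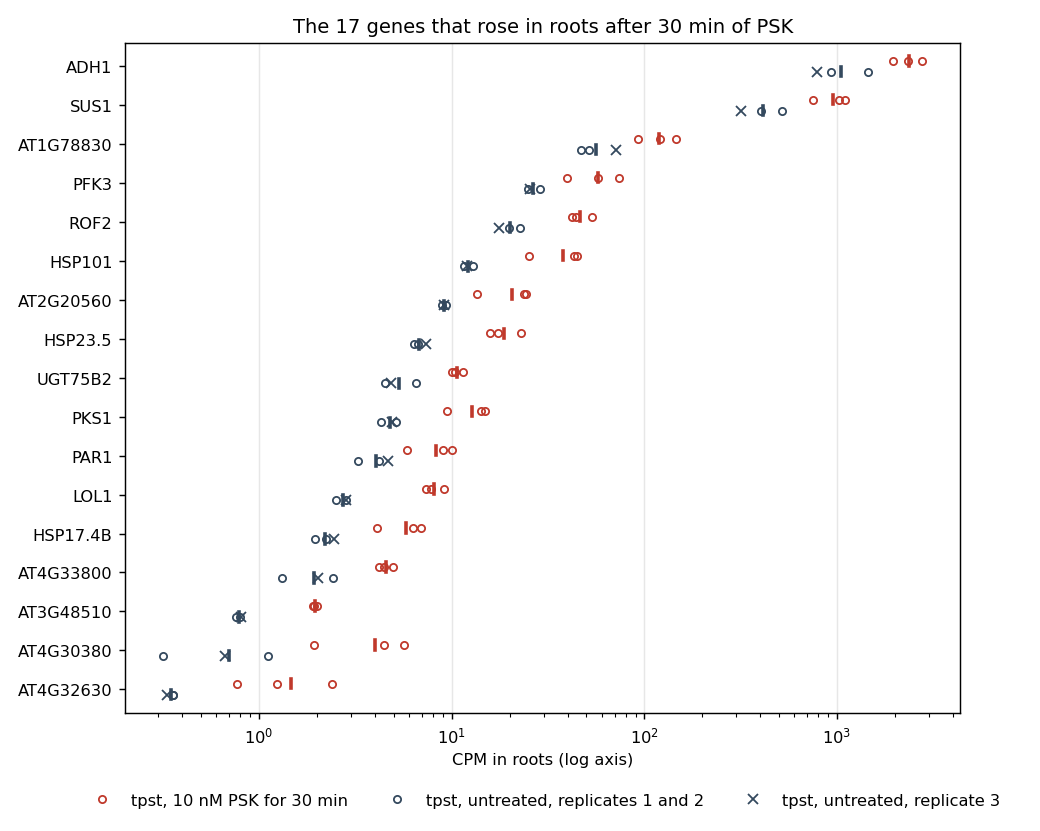
CPM (log axis) of the 17 genes that rose in roots after 30 min of PSK, 1 row per gene, ordered by level in untreated roots. Red circles are the 3 PSK libraries, dark circles untreated replicates 1 and 2, crosses untreated replicate 3, and bars group means. Levels span from under 1 CPM for AT4G32630 to 2778 CPM for ADH1, and in every row the PSK libraries lie right of the untreated ones.

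The PSK pathway itself had no gene past both thresholds among 13 tested, whose median log2 fold change was -0.19. PSKR1 came closest. The receptor had 31.8, 27.3 and 28.8 CPM with PSK, against 51.9, 52.4 and 37.7 CPM untreated, a difference that passed the adjusted p and not the fold minimum (log2 fold change -0.69, SE 0.12, adjusted p = 0.00966). With no fold minimum, 0.866% of all genes were lower. PSKR2 had 27.9, 25.9 and 33.3 CPM with PSK and 34.1, 36.7 and 31.2 CPM untreated (log2 fold change -0.23, SE 0.14, adjusted p = 0.473). Of the precursor genes, PSK1 had 18.8, 19.8 and 13.5 CPM with PSK and 21.8, 22.6 and 24.6 CPM untreated (adjusted p = 0.298), PSK4 had 36.1, 30.7 and 22.5 CPM with PSK and 35.7, 39.05 and 39.8 CPM untreated (adjusted p = 0.338), and PSK2, PSK3 and PSK5 had log2 fold changes of -0.34, -0.01 and 0.02. At an unadjusted p under 0.05, 4 of the 13 genes were lower and none higher with PSK, against 8.69% and 5.99% of all genes. DESeq2 called none of the 13.

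Other lists held few or no calls. Among touch, wounding and rapid stress regulators, 2 of 24 were downregulated, ZAT11 and WRKY33 (8.33%, against 0.375% of all genes). The median was -0.87, with 21 of 24 values below 0. No gene was called by edgeR among 26 ethylene genes (median -0.26), 26 jasmonate genes (median -0.31) and 16 genes of camalexin and indole glucosinolate synthesis (median -0.17), and DESeq2 called none in these 3 lists. At an unadjusted p under 0.05, 12 ethylene genes were lower and 2 higher, and 1 gene of each of the other lists was lower. Over all genes tested, 8.69% were lower and 5.99% higher at that threshold. The jasmonate median was -0.02 without untreated replicate 3. The jasmonate regulator ORA47 had 8.53, 2.95 and 4.13 CPM with PSK and 34.1, 19.4 and 13.4 CPM untreated, a wide spread in both groups (log2 fold change -2.10, SE 0.71, adjusted p = 0.198). Nor was any of 10 ribosome biogenesis genes called (median -0.11), nor any of 96 ERF and DREB factors (median -0.21) or 31 cysteine-rich receptor-like kinases (median -0.30). At an unadjusted p under 0.05, none of the ribosome biogenesis genes, 19 lower and 4 higher ERF and DREB factors and 9 lower receptor-like kinases were found. DESeq2 called 2 lower and 1 higher among the ERF and DREB factors and none in the other pair of lists.

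**Figure D3:**
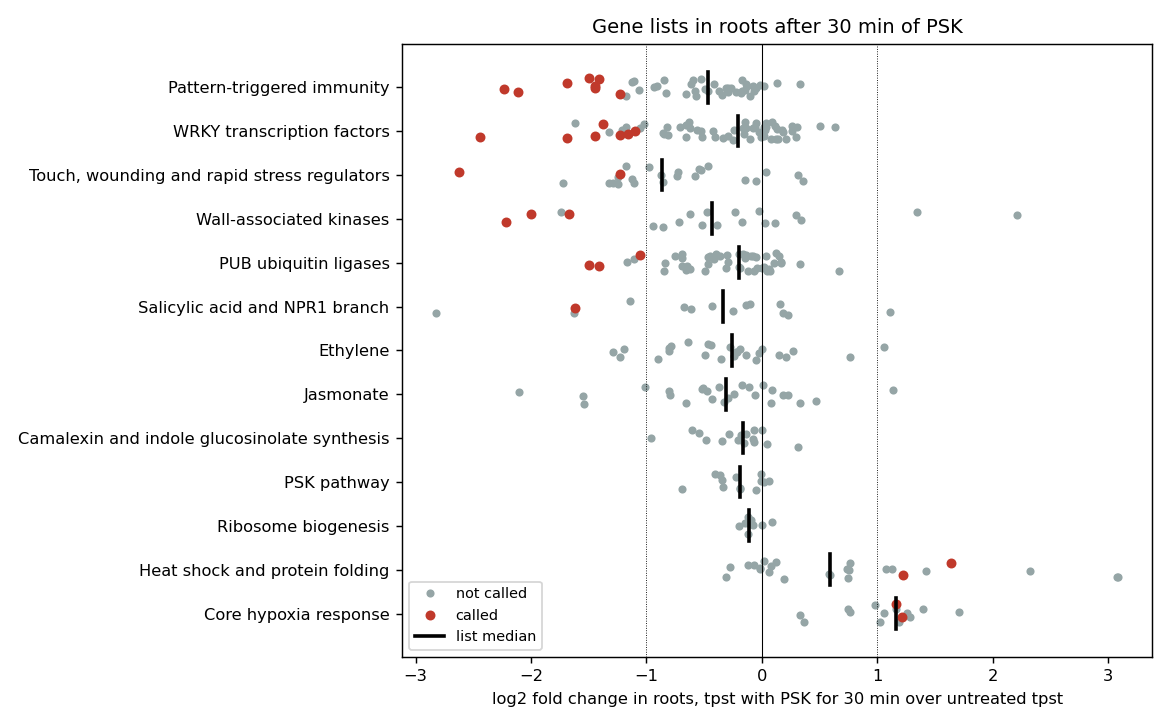
Log2 fold change in roots (PSK 30 min over untreated tpst) of each tested gene in 13 gene lists, 1 row per list. Red points are called genes, gray points genes not called, black bars list medians and dotted lines a 2-fold change. The medians run from -0.87 for touch, wounding and rapid stress regulators to 1.16 for the core hypoxia response, and the ribosome biogenesis genes lie close to 0.

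To see how levels stood later, roots given PSK for 2 h were compared with those given it for 30 min. LHY, a clock gene of the morning, was the only gene called of 21358 (0.00468%), with 33.1, 37.5 and 47.4 CPM at 2 h, against 19.4, 15.3 and 19.8 CPM at 30 min (log2 fold change 1.11, SE 0.16, adjusted p = 0.0164). It was higher in all 3 of the later libraries. None of the 97 genes passed an adjusted p of 0.05 in edgeR, with smallest values of 0.0651 among the genes that had fallen and 0.155 among those that had risen. By DESeq2, 8 of the 80 and 4 of the 17 passed. At an unadjusted p under 0.05, 922 of all 21358 genes tested were higher and 798 lower at 2 h. Of the 80, 27 were higher and 3 lower, and 7 of the 17 were lower and 2 higher. The 30 min libraries made the calls and also enter this comparison, so the comparison is not independent of those calls.

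Mean levels at the 3 times took different courses between genes, which was not tested. HSP101 averaged 12.1 ± 0.628 CPM in untreated roots, 37.8 ± 10.8 CPM at 30 min and 16.7 ± 0.752 CPM at 2 h (SD, n = 3 each), and ROF2 averaged 20.03 ± 2.56, 46.6 ± 6.14 and 29.97 ± 1.11 CPM. Both chaperones had their highest mean at 30 min, with adjusted p of 0.155 and 0.346 for the step to 2 h. ADH1 averaged 1056 ± 348 CPM untreated, 2355 ± 418 CPM at 30 min and 4041 ± 382 CPM at 2 h, and SUS1 averaged 413 ± 99.1, 955 ± 182 and 1432 ± 136 CPM. For both enzymes the libraries at 2 h all lay above those at 30 min, with adjusted p of 0.356 and 0.543 for the step between the 2 times. WRKY72 averaged 43.0 ± 6.74 CPM untreated, 7.86 ± 2.32 CPM at 30 min and 18.21 ± 6.22 CPM at 2 h, WRKY17 averaged 116 ± 13.3, 51.6 ± 10.6 and 77.5 ± 3.23 CPM, and PP2A8 averaged 50.5 ± 3.53, 16.8 ± 3.56 and 34.2 ± 6.28 CPM. For the step from 30 min to 2 h, the adjusted p was 0.223 for WRKY72, 0.113 for WRKY17 and 0.102 for PP2A8. CBP60G stayed low, at 29.1 ± 3.54 CPM untreated, 9.47 ± 1.20 CPM at 30 min and 8.65 ± 1.52 CPM at 2 h. The comparisons of 2 h and of 30 min with untreated roots share their controls, and in the first, 196 genes fell (0.918%) and 81 rose (0.379%), 1.3% in all.

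**Figure D4:**
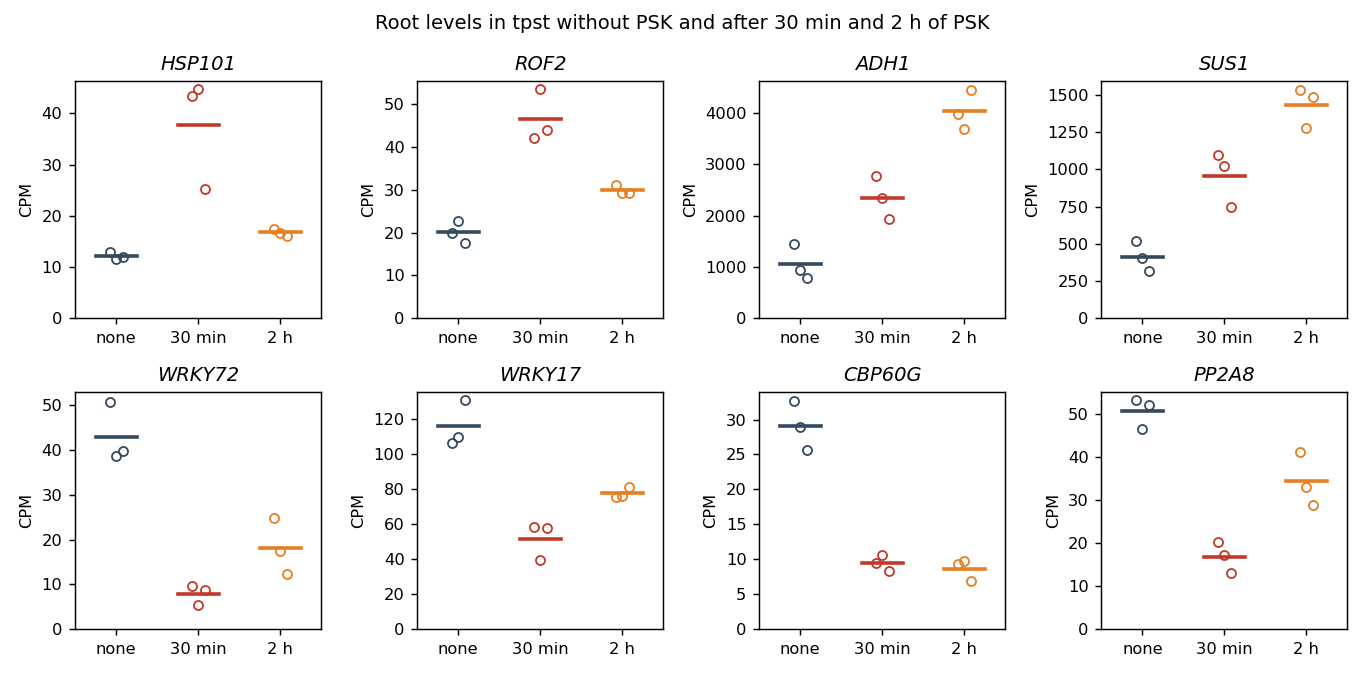
CPM in tpst roots without PSK and after 30 min and 2 h of PSK for 8 genes, 1 panel each, with axes from 0. Circles are the 3 libraries of a group and bars their mean. HSP101 and ROF2 peak at 30 min, ADH1 and SUS1 are highest at 2 h, WRKY72, WRKY17 and PP2A8 are lowest at 30 min, and CBP60G is low at both times.

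WT roots, which make active PSK and had no change of medium, give a further reference level. WRKY72 averaged 60.9 ± 1.11 CPM in WT roots, MLO12 54.2 ± 6.82 CPM, IOS1 49.7 ± 1.06 CPM and PUB23 152 ± 12.2 CPM (SD, n = 3 each), all near or above the untreated tpst levels. CBP60G averaged 15.6 ± 1.86 CPM and WRKY17 61.8 ± 4.06 CPM, between the PSK and untreated tpst means. AT1G13480 averaged 8.12 ± 0.398 CPM, near its level with PSK. Of the genes that rose, ADH1 averaged 515 ± 21.9 CPM and SUS1 178 ± 15.2 CPM in WT roots, below untreated tpst roots (log2 fold changes of WT over untreated tpst -1.03 and -1.22, adjusted p = 0.00978 and 0.00315). HSP101 averaged 24.9 ± 10.6 CPM and ROF2 40.1 ± 14.9 CPM, above untreated tpst roots (1.04 and 1.0006, adjusted p = 0.0164 and 0.00317), with a wide spread in WT. The WT and PSK comparisons share the untreated tpst libraries, and WT exceeded untreated tpst for 745 genes (3.49%) and was below it for 630 (2.95%), 6.44% in all.

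Shoots of the same experiment, separated from the roots of the pooled seedlings, allowed the same contrast in separate libraries. Of 20811 genes tested in shoots at 30 min, 75 rose (0.36%) and 52 fell (0.25%), 0.61% in all. Of the 17 genes that rose in roots, 16 were tested in shoots and 5 rose there, ADH1, SUS1, PFK3, AT4G30380 and AT4G32630. Of the 80 that fell in roots, 73 were tested in shoots and 9 fell there, WRKY11, WRKY22, WRKY72, PUB22, PUB23, AT4G20000, AT5G44910, AT2G36690 and SDR3B. None moved the opposite way past the thresholds, and 68 of the 73 had values below 0, with a median of -0.72, against a median of -0.01 over all genes in shoots. ADH1 had a log2 fold change of 1.95 in shoots (SE 0.15, adjusted p = 1.96e-05), beside 1.16 in roots. HSP101 had 0.42 in shoots (SE 0.21, adjusted p = 0.302), beside 1.64 in roots, and CBP60G had -0.41 (SE 0.43), beside -1.62 in roots.

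The difference between the tissues was tested directly, without pairing the root and shoot of a pool. None of the 97 genes had an adjusted p under 0.05 for the response in roots minus that in shoots in edgeR, where the smallest values were 0.144 among the genes that rose in roots and 0.101 among those that fell. By DESeq2, 2 of the 17 and 5 of the 80 passed. At an unadjusted p under 0.05, 1039 of all 22303 genes tested had a lower response in roots and 817 a higher one. Of the 80, 29 had a lower response in roots and none a higher one, and of the 17, 9 had a higher and 1 a lower one. The root libraries that made the calls also enter this comparison, so these directions are not independent of the calls. HSP101 differed by 1.21 (SE 0.36, adjusted p = 0.244) and CBP60G by -1.22 (SE 0.49, adjusted p = 0.456). Over all 22303 genes tested, ELIP2, an early light-induced protein gene of chloroplasts, was the only one called (0.00448%).

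**Figure D5:**
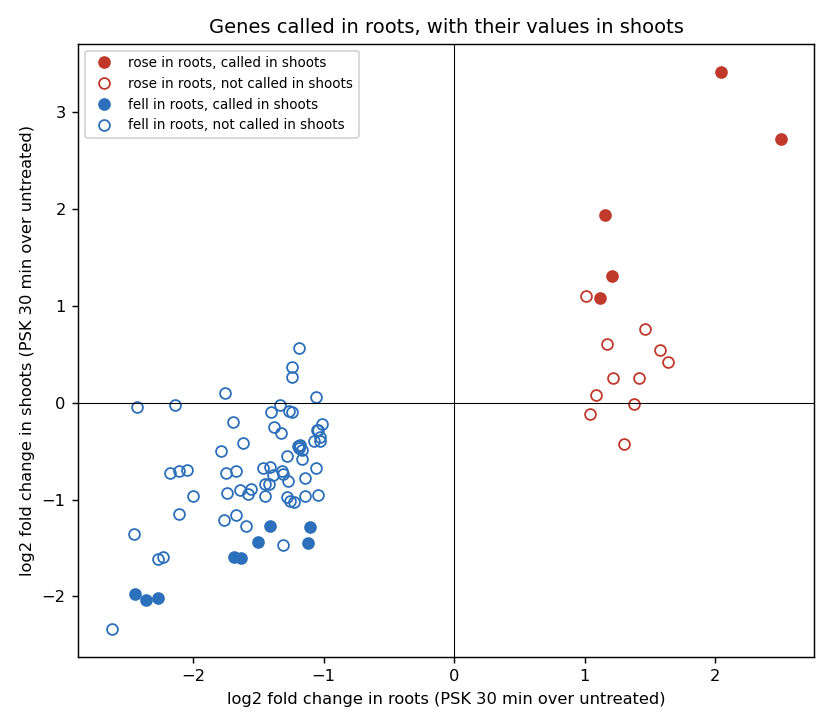
Log2 fold change after 30 min of PSK in roots (x axis) and in shoots (y axis) for the called root genes that were tested in shoots, 16 that rose (red) and 73 that fell (blue). Filled points were also called in shoots, 5 and 9 genes. Most blue points lie below 0 in shoots, and the red points spread from below 0 to above 3.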

How the data were processed

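The deposited gene counts were whole reads per gene that the authors obtained with fastp, HISAT2 2.0.5 (TAIR10) and featureCounts 1.5.0-p3. A deposited FPKM table was not used. Totals were 24886115 to 36921510 counts in the 6 libraries compared. Genes were kept by filterByExpr (minimum count 10) and tested with edgeR 4.0.16 (TMM, quasi-likelihood with robust estimation) over the 18 root libraries in 6 groups, with Benjamini-Hochberg adjustment over all genes; a call needed a fold of 2 and an adjusted p under 0.05. CPM come from that fit, except the medians of marker lists, which come from all 36 libraries scaled together. The contrast between tissues used all 36. SE is the log2 fold change divided by the root of F. In simulated data for the main comparison, 94% of 3-fold and 79% of 2-fold changes had an adjusted p under 0.05 in the right direction. No fold minimum was applied there. With the fold minimum, 94% of the 3-fold changes were called, and that share was not computed for 2-fold changes. The changes were not placed in genes of the lowest levels, and no simulated library held shoot transcripts. Promoters were read from RefSeq (TAIR10.1).

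Members and lists were chosen with earlier results of these data known. Named by rule were all genes of a direction with at most 20 calls. In the other direction they were the 15 with the smallest p and the 5 with the largest change. Those had to be protein-coding, average 5 CPM or more and have all PSK libraries on one side of the untreated ones. Also named were up to 4 called members per list (or 2 uncalled), the 8 study-named genes, PSK genes, and the leading genes of the other tests. The remaining named genes and the groups by RefSeq product were chosen after their values were seen. The replicates are pools of seedlings. Alternatives were other normalization, filters, DESeq2 1.42.0, fewer libraries, a replicate block, a photosynthesis covariate and leaving out each library; the fit without robust estimation was added after seeing the data.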

Additional observations from a re-analysis of the deposited data

Results flagged for a closer look

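For 3 genes the response to 30 min of PSK differed between roots and shoots in the interaction test of edgeR over all 36 libraries, each at an adjusted p of 0.0443. ELIP2, an early light-induced protein gene, had a log2 fold change of -0.50 in roots and 1.15 in shoots, a difference of -1.65. CRF6, a cytokinin response factor gene, had -0.35 in roots and 0.52 in shoots, a difference of -0.87. AT3G15080 had 0.05 in roots and -0.75 in shoots, a difference of 0.79. ELIP2 alone passed the fold minimum, and without untreated root replicate 3 no gene was called as lower in roots.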

How the results depend on the processing

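In roots at 30 min, 17 genes rose and 80 fell. The counts were 65 and 185 with no fold minimum, 53 and 149 with DESeq2, and 72 and 184 with DESeq2 on the 6 libraries alone. They ranged from 0 to 24 and from 21 to 93 when 1 library was left out. RLE scaling, other filters, edgeR on the 6 libraries, the photosynthesis covariate and the fit without robust estimation (added after seeing the data) stayed within 1.5 times. With the replicate block, 49 rose and 119 fell. Same-numbered PSK and untreated libraries deviated together only weakly (r = 0.107, 0.142 and 0.077), so the numbers were not taken to pair them, although each library correlated best with its own number, a hint from the data and not the design.

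At 2 h against 30 min, 1 gene was higher and 0 lower (922 and 798 at an unadjusted p under 0.05). The counts were 11 and 11 with no fold minimum, 15 and 22 with DESeq2, 9 and 26 with edgeR on the 6 libraries, 29 and 76 with DESeq2 on them, 5 and 1 with the replicate block and 2 and 1 without robust estimation. With the covariate 2 were lower and with the stricter filter 1. Leaving out 1 library gave 0 to 4 higher and 0 to 5 lower.

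For roots minus shoots, 0 genes were higher and 1 lower. The counts were 1 and 2 with no fold minimum, 8 and 59 with DESeq2 and 1 and 4 with shoot and root as 1 plant block. Lower genes numbered 0 with RLE scaling, 0 without a filter, 4 with the 12 libraries alone and 2 with the replicate block. Leaving out 1 library gave 0 to 1 higher and 0 to 24 lower; the 24 came without untreated root replicate 2.

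Signs turned for shoot transcripts and for PSK genes near 0. Leaving out 1 library gave log2 fold changes of -2.38 to 0.32 for LHCA1, -8.94 to 1.66 for TGG2, -5.09 to 3.74 for TGG1 and -1.56 to 0.66 for RBCS1A, each highest without untreated replicate 3. The ranges were -0.011 to 0.11 for TPST, -0.56 to 0.089 for PSK2, -0.14 to 0.061 for PSK3 and -0.093 to 0.21 for PSK5. With the covariate TGG1 was at 1.69 and PSK3 at 0.014, and PSK3 was at 0.004 without a filter and at 0.0075 with the stricter one. Within the 250 bases before the start alone, the shares over all genes were 41.0% for the W-box, 2.8% for CGCGTT, 1.9% for the GCC-box, 7.2% for the G-box and 9.4% for GAANNTTC, which was at 0.0% among genes that rose. The causes were not tested.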

Other observations

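Below the fold minimum, 65 genes were higher and 185 lower with PSK at an adjusted p under 0.05 in edgeR when no fold was required, counting the 17 and 80 above. CCA1, a clock gene of the morning, had 7.31, 7.37 and 7.91 CPM with PSK, against 4.73, 4.36 and 3.64 CPM untreated (log2 fold change 0.83, SE 0.17, adjusted p = 0.0266). PRR3, a clock gene of the later day, had 4.42, 5.37 and 6.15 CPM with PSK, against 8.62, 8.21 and 9.85 CPM untreated (log2 fold change -0.74, SE 0.16, adjusted p = 0.0311). On the list of dawn genes 9 of 10 had values above 0 (median 0.23), and on that of dusk genes 6 of 9 had values below 0 (median -0.22), with no gene called by edgeR in either. All 9 type-A response regulators, which are induced by cytokinin, had values above 0 (median 0.65), and none was called. Of the 9, 3 were higher at an unadjusted p under 0.05, against 5.99% of all genes. The time of day of each harvest is not given in the sources used here.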
